A study of Homo sapiens with 10 samples.

Results

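The genes described here encode the proteins of the mitochondrial ribosome that carry an MRPL or MRPS symbol. They were chosen by name, as every gene on the arrays whose Entrez ID maps to MRPL or MRPS followed by a number and at most a letter from A to C, and 76 of the 23786 measured genes met this rule. Of these, 49 are named MRPL and 27 are named MRPS. By their place in known structures of the ribosome, 51 belong to the large subunit, which includes MRPS18A and MRPS30, and 25 to the small subunit. The rule uses names and no measured value, but it was set with earlier results of these data known. MRPS24 was not analysed here.

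The mitochondrial ribosome translates the few proteins that mitochondrial DNA encodes, all of them membrane subunits of the respiratory chain and the ATP synthase. Its RNAs are made inside the organelle, whereas all of its proteins are encoded in the nucleus, made on cytosolic ribosomes and imported. Some of these proteins descend from bacterial ribosomal proteins and others were gained by mitochondria. In mammary epithelial cells, as elsewhere, mitoribosome proteins must be supplied for oxidative phosphorylation to be built.

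The samples were cells of MCF10A, a human breast epithelial line that does not form tumours, either untreated or given 10 ng/mL TGFβ1, a cytokine under which these cells pass from an epithelial to a mesenchymal state. All were of the same unmodified line. RNA was measured on 10 arrays, for untreated cells, for 4 h and for days 1, 2, 3, 4, 5, 6, 8 and 12 of treatment, with 1 array for each. In the study, treatments were staggered for a common harvest and the cells were without serum for 16 h before it. For testing, the arrays were set in 3 windows that follow the study's stages, namely early (untreated, 4 h and day 1), middle (days 2 to 4) and late (days 5, 6, 8 and 12). The early window therefore joins the untreated cells with 2 treated samples. Arrays of a window are different time points and not replicate cultures, so an adjusted p measures a difference between windows against the spread within them. Whether an array came from 1 culture or from pooled cultures is not given in the sources used here. All values are log2 expression values, and a difference of -1 on this scale is a halving of signal.

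Markers of breast epithelium were present. KRT5, a basal keratin, lay between 9.42 and 11.09, and CDH1, the epithelial cadherin, between 9.04 and 10.06. Their late minus early differences went both ways. Of 4 basal markers (KRT5, KRT14, KRT17 and TP63) 2 lay below 0 and 2 above. The same was true of 4 other epithelial markers (CDH1, EPCAM, KRT18 and KRT8). KRT5 lay above 0 at 0.26 but at -0.17 without the untreated array, so the count of the basal markers depended on that array. CDH1 rose from early to late (0.65, adjusted p = 0.00543 by limma), as did the basal keratin KRT14 (2.18, adjusted p = 0.0156), a call that was lost without the untreated array (1.65). KRT17, another basal keratin, stayed low at 1.68 to 3.35 and did not pass the test (-0.78, adjusted p = 0.0653). Without the untreated array KRT17 was called lower (-0.96, adjusted p = 0.0496). EPCAM, an epithelial surface protein, went from 8.04 in untreated cells to 7.41 on day 12 and did not pass (-0.59, adjusted p = 0.0639). The keratins KRT18, at 6.08 to 6.53, and KRT8, at 3.31 to 4.62, did not pass either. Their differences were 0.06 and -0.06, and 0.02 and -0.14 without the untreated array. FN1, the fibronectin gene, rose from 5.06 in untreated cells to 11.77 on day 12, and CDH2, the mesenchymal cadherin, from 3.44 to 8.02. VIM, the gene of vimentin, did not pass the test (0.37, adjusted p = 0.24). The blood marker PTPRC, the endothelial markers PECAM1 and CDH5 and the fat marker ADIPOQ did not exceed 1.92 on any array, and the lower quartile of all genes lay at 1.64 to 1.80 across the arrays. The untreated array stood furthest from the others, with a median absolute deviation from each gene's own median of 0.24, against 0.10 to 0.16 on the other arrays. Of the 76 genes, 41 had their highest value on the untreated array and 7 their lowest, where 23.7% and 17.2% of all genes did so. Because this array is part of the early window, the number of genes of the family called against that window is given also without it. For single genes it is stated where leaving it out ended the call, turned the sign or moved the late minus early difference by over 1.5 times.

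Mitochondrial ribosomal protein genes were lower in the late window than in the early one. By limma with Benjamini-Hochberg adjustment over all genes, 17 of the 76 fell and none rose at an adjusted p of at most 0.05, where 7.12% of all genes tested fell and 8.00% rose. Most of the family lay above the median gene by mean level, where calls were more frequent. There 15 of 69 genes of the family fell (21.7%) and none rose, against 11.7% and 14.5% of all genes above the median gene. At an unadjusted p under 0.05, 34 of the 76 passed in either direction, as did 6730 of all 23786 genes. The median difference was -0.31 log2 over the 76 genes and -0.06 over all genes, and 65 of the 76 lay below 0, as did 59.3% of all genes. In 26 genes every late array was below every early array, and in 1 gene every late array was above, against 13.1% and 10.8% of all genes. A single gene, MRPS6, fell by at least 1 log2, which 1.64% of all genes did, and none rose so far (2.92%). Without the untreated array 13 genes were called lower, 12 of them among the 17 and the other MRPL38. The median was then -0.26 log2, 67 genes lay below 0 and 4 genes, none of them called, changed sign. Without the 4 h array or without the day 5 array 11 were called lower. The shares of all genes in these refits are not given here.

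**Figure D1:**
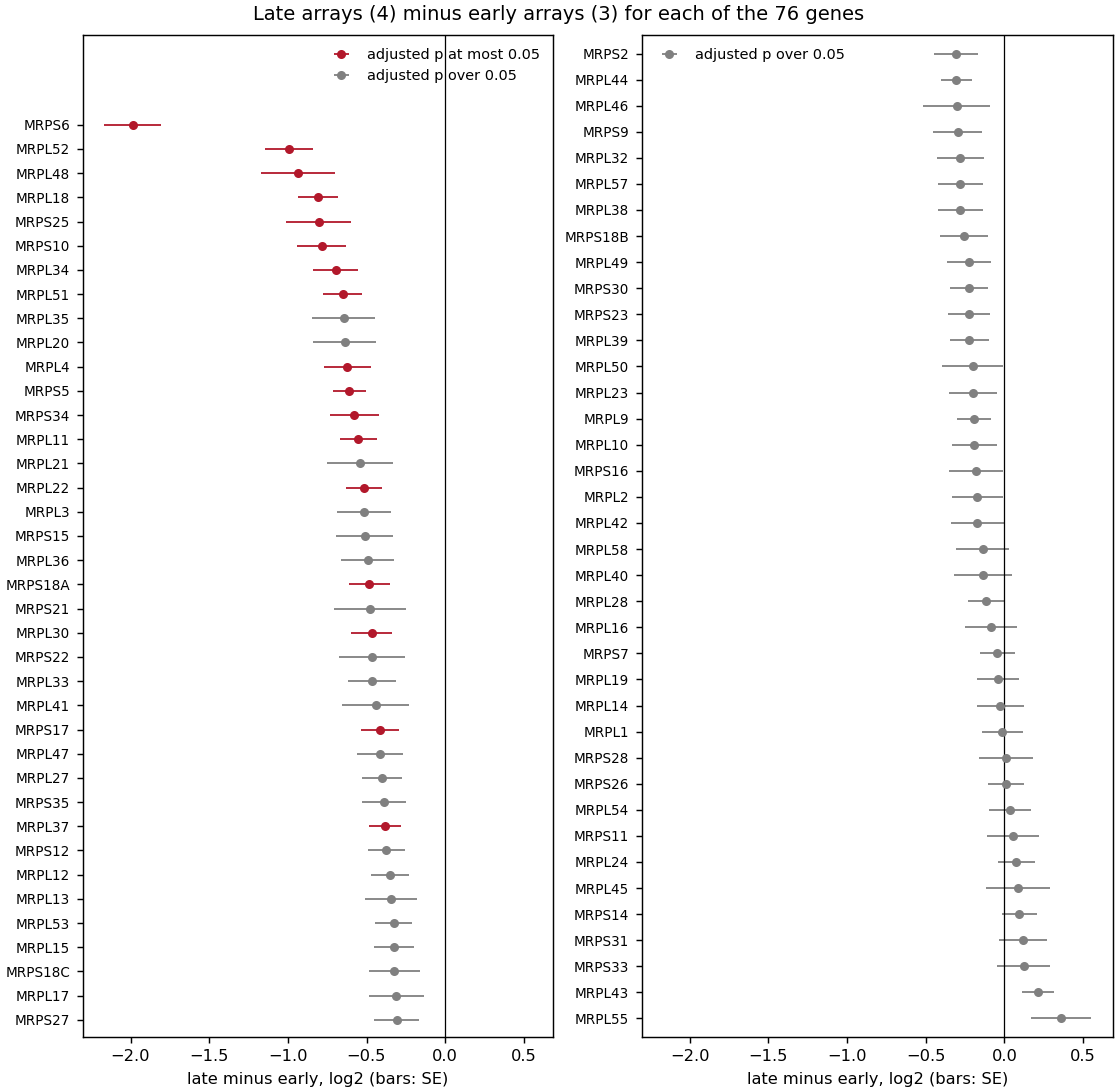
Late minus early difference on the log2 scale (x axis) for each of the 76 genes (rows, ordered by difference), with bars for the standard error of the limma fit over 4 late and 3 early arrays. The 17 genes in red have an adjusted p of at most 0.05 and all lie below 0, with MRPS6 far to the left at -1.99, and the highest value is that of MRPL55 at 0.36.

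MRPS6, a small-subunit protein with a bacterial counterpart, changed most. Its values were 7.41, 6.65 and 7.06 in untreated cells, at 4 h and on day 1. They were 5.43, 5.57 and 5.10 on days 2, 3 and 4, and 5.23, 5.02, 4.86 and 5.10 on days 5, 6, 8 and 12. All later arrays were below all early ones, and the drop lay between day 1 and day 2, at -1.64 log2. The late level was 0.252 times the early level (-1.99 ± 0.18 log2, SE, adjusted p = 5.74e-05 by limma), and the middle window was also lower (-1.67 ± 0.19, adjusted p = 0.00116). Without the untreated array the late difference was -1.80 (adjusted p = 1.78e-04).

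MRPS6 lies on chromosome 21, where SLC5A3, the gene of a sodium-coupled myo-inositol transporter, overlaps it on the same strand. In the RefSeq annotation the 2 genes have the same start, with 0 bases between them. SLC5A3 measured 7.42, 6.73 and 6.85 on the early arrays, 6.10, 5.94 and 5.86 on the middle ones, and 5.59, 5.69, 5.45 and 5.51 on the late ones. It therefore fell as well, by 1.44 log2 from early to late (SE 0.16), and its values on the middle and late arrays all lay below its early values. Whether the array's probes for the 2 genes share transcripts was not tested.

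The promoter sequences of 4 genes are shown, chosen with their differences known. MRPS6 fell most, MRPL52 had the next lowest difference, MRPL51 fell beside a neighbour that rose, and MRPL55 had the highest difference. Each window holds 250 bases before and 50 bases after the gene start, 5′ to 3′ on the gene's own strand, from RefSeq on build GRCh38.p14. The windows are chr21:34073328-34073627 (plus strand) for MRPS6, chr14:22829637-22829936 (plus strand) for MRPL52, chr12:6493213-6493512 (minus strand) for MRPL51 and chr1:228109250-228109549 (minus strand) for MRPL55. Capitals mark matches, on either strand, to 3 short motifs named for factors known to act at promoters of mitochondrial genes. The motifs are GCATGCG for NRF1, CCGGAAG for the ETS family, to which the GABP factor belongs, and AAGATGG for YY1.
MRPS6: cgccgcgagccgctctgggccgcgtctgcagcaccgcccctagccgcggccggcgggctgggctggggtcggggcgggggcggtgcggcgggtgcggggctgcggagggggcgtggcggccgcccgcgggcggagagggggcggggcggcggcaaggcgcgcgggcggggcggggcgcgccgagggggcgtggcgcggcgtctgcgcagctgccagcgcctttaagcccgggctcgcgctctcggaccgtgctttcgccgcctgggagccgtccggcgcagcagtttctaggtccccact
MRPL52: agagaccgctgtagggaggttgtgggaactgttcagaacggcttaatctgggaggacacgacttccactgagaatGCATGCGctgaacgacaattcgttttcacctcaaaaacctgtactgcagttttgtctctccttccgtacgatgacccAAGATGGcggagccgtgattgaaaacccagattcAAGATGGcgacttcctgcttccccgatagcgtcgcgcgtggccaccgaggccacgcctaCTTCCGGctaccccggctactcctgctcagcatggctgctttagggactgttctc
MRPL51: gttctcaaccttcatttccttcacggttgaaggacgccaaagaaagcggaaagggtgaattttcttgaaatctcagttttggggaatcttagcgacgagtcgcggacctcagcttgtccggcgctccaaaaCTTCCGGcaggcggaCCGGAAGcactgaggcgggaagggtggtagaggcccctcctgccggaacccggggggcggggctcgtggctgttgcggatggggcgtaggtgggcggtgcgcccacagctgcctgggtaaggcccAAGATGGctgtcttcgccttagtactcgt
MRPL55: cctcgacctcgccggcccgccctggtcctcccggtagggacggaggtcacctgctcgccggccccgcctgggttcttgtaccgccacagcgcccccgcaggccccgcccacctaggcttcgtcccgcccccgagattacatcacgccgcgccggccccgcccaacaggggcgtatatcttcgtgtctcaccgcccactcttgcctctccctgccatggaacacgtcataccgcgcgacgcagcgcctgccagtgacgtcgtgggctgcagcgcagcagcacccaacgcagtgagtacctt
The MRPL52 window held 4 matches, to all 3 motifs, and the MRPL51 window held 3, of which 2 were ETS and 1 was YY1. The MRPS6 and MRPL55 windows held none. The MRPS6 window was 82.0% G and C, the highest among the genes of the family with a window, whose median was 60.3%.

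A promoter window was found for 68 of the 76 genes. The first start listed was taken for the 11 genes with more than 1. The ETS motif was in 29 of the 68 windows (42.6%). It was in 10.7% of the 27305 windows of the whole table and in 13.9% of the 16338 windows of genes on the arrays. The YY1 motif was in 22 (32.4%, against 6.06% and 6.38%) and the NRF1 motif in 7 (10.3%, against 4.13% and 5.06%). At least 1 of the 3 was in 44 windows (64.7%, against 18.9% of the whole table), and in no window did matches to different motifs overlap. All 17 genes called lower had a window, and 7 of these held the ETS motif (41.2%), beside 22 of the 51 windows of genes not called (43.1%). For YY1 the counts were 6 of 17 (35.3%) and 16 of 51 (31.4%). These are descriptions of letters in the windows, and binding was not measured.

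In the large subunit 11 of 51 genes fell (21.6%) and none rose from early to late, with a median of -0.31 log2. Of all genes 7.12% fell and 8.00% rose. Those shares of all genes also stand beside the late minus early counts of every part and list below. MRPL52, a protein that bacterial ribosomes lack, measured 3.15, 3.14 and 3.19 on the early arrays. It measured 2.71, 2.37 and 2.77 on the middle arrays and 2.02, 2.10, 2.01 and 2.54 on the late ones. The early values were nearly level, all later arrays were lower, and the late window was the lowest apart from day 12 (-0.99 ± 0.15, adjusted p = 0.00118). MRPL51, also without a bacterial counterpart, measured 6.74, 6.69 and 6.52 early and 5.77, 6.08, 6.22 and 5.93 late (-0.65 ± 0.12, adjusted p = 0.00458).

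Among proteins inherited from bacteria, MRPL34 measured 6.12, 5.86 and 5.72 early, 5.21, 5.58 and 5.07 on the middle arrays, and 5.26, 5.10, 5.28 and 5.17 late. Neither the late nor the middle window overlapped the early one, and both the late (-0.70 ± 0.14, adjusted p = 0.00714) and the middle difference (-0.61, adjusted p = 0.0327) passed the test. MRPL4, whose bacterial counterpart lines the tunnel that the new protein passes through, differed by -0.62 (SE 0.15, adjusted p = 0.0168), with early values of 3.92, 4.41 and 3.94 and late values of 3.59, 3.32, 3.43 and 3.54. Its call was lost without the 4 h array. MRPL30 (-0.47), and MRPL37 (-0.38), which has no bacterial counterpart, were also called and are named after their values were seen. Each lost its call when any of 5 of the 10 arrays was left out, for MRPL30 the untreated one among them. MRPL35 (-0.64, adjusted p = 0.0510, and -0.41 without the untreated array) and MRPL20 (-0.64, adjusted p = 0.0537), both among the 10 lowest, were just past the limit.

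For the central protuberance, the crest of the large subunit that faces the small one and the tRNAs, a list of 5 genes was used, of which 2 fell. The list may not hold every gene of the family with a protein there. MRPL18, of the family that binds 5S RNA in bacteria, measured 5.97, 6.09 and 6.15 early, 5.48, 5.59 and 5.27 on the middle arrays and 5.26, 5.02, 5.43 and 5.33 late. Its early values were the high ones and no later array reached them (-0.81 ± 0.13, adjusted p = 0.00163). MRPL48 measured 3.09, 2.54 and 2.50 early and 1.64, 1.34, 2.19 and 1.93 late, and 1.55 on day 2. The difference was -0.93 ± 0.23 (adjusted p = 0.0195), its values lay near the lower quartile of all genes on several arrays, and the call was lost without the untreated, day 5 or day 6 array. MRPL38 (-0.28), MRPL40 (-0.14) and MRPL46 (-0.30) did not pass the test. Without the untreated array MRPL38 was at -0.44 and called (adjusted p = 0.0400), while MRPL40 was at 0.01 and MRPL46 at -0.05.

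The stalk, which recruits translation factors to the ribosome, is represented by 3 genes. MRPL11, at the stalk base, measured 3.57, 3.30 and 3.42 early, 2.93, 2.78 and 2.93 on the middle arrays and 2.87, 2.86, 3.04 and 2.74 late. It was lower in the late window (-0.55 ± 0.12, adjusted p = 0.00763) and by the same amount in the middle window (-0.55, adjusted p = 0.0200). MRPL12 (-0.35, adjusted p = 0.0782) and MRPL10 (-0.19, adjusted p = 0.42) did not pass.

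Of 6 genes listed around the exit tunnel, where the new protein leaves the ribosome towards the inner membrane, 1 fell. This was MRPL22, with 5.21, 5.41 and 5.04 early and 4.70, 4.63, 4.76 and 4.74 late (-0.52 ± 0.12, adjusted p = 0.0112). MRPL4, described above and also called lower, was not on this list. MRPL47 (-0.41), MRPL17 (-0.31), MRPL23 (-0.20), MRPL24 (0.08) and MRPL45 (0.09) did not pass. With 6 genes on the list, 1 call cannot be set apart from the 7.12% of all genes that fell. With the untreated array left out MRPL17 was at -0.11, MRPL23 at -0.13 and MRPL45 at -0.20. MRPL45, which holds the ribosome to the inner membrane, measured 5.23 in untreated cells and 5.53 to 6.16 on all treated arrays.

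In the small subunit 6 of 25 genes fell and none rose, with a median of -0.31 log2. Beside MRPS6, the lowest was MRPS25, a protein that bacterial ribosomes lack, with 5.98, 6.61 and 6.08 early and 5.42, 4.95, 5.52 and 5.78 late (-0.81 ± 0.21, adjusted p = 0.0217). The day 12 value was the nearest to the early ones, and the call was lost without the 4 h or the day 6 array. MRPS10, on the head of the subunit, measured 6.32, 5.96 and 5.75 early, 5.14, 5.55 and 5.33 on the middle arrays and 5.05, 5.20, 5.28 and 5.37 late (-0.79 ± 0.15, adjusted p = 0.00532). The late arrays all lay below day 1, its lowest early value.

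MRPS5, whose bacterial counterpart lies by the entry of the mRNA channel, is named after its values were seen. It measured 6.98, 6.87 and 6.77 early, 6.15, 6.15 and 6.19 on the middle arrays and 6.23, 6.36, 6.15 and 6.30 late. The middle difference was -0.71 (adjusted p = 0.00422) and the late one -0.61 (SE 0.10, adjusted p = 0.00244). MRPS34 (-0.58) and MRPS17 (-0.42), also named after their values were seen, were called lower too. MRPS34 lost its call without the untreated or day 5 array and MRPS17 lost it in 8 of the 10 refits that left out an array, the untreated one included. MRPS12, at the decoding site where codon and tRNA are matched, measured 2.31, 2.47 and 2.54 early and 1.99, 2.12, 1.96 and 2.21 late. These windows did not overlap, but the difference did not pass the test (-0.37 ± 0.12, adjusted p = 0.0577).

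The 3 MRPS18 paralogues descend from 1 bacterial protein and sit at different places, MRPS18A in the large subunit and MRPS18B and MRPS18C in the small one. MRPS18A measured 6.53, 6.49 and 6.15 early and 5.85, 5.80, 6.07 and 5.91 late, and fell (-0.48 ± 0.13, adjusted p = 0.0264), a call lost without the untreated, 4 h, day 5 or day 6 array. MRPS18B differed by -0.26 ± 0.15 (adjusted p = 0.31) and MRPS18C by -0.32 ± 0.16 (adjusted p = 0.23). The paralogues were not tested against each other.

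By origin, 11 of the 46 genes with a bacterial counterpart fell (median -0.35 log2), as did 6 of the 30 without one (median -0.25). At the other end of the list, MRPL55 (0.36), MRPL43 (0.21), MRPS33 (0.12), MRPS31 (0.12), MRPS14 (0.10) and MRPL45 (0.09) had the highest differences, and none of them passed the test. MRPL55 measured 3.76 in untreated cells, 4.52 and 4.45 at 4 h and on day 1, and 4.20 to 4.77 on every later array. Its 4 h and day 1 values lay within the later range. Leaving out the untreated array gave it a difference of 0.12, MRPS14 one of 0.05, and MRPS31 and MRPL45 differences below 0, at -0.07 and -0.20. MRPL43 measured 3.52, 3.49 and 3.43 early and 3.73, 3.78, 3.72 and 3.55 late, the single gene whose late arrays were all above its early ones.

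**Figure D2:**
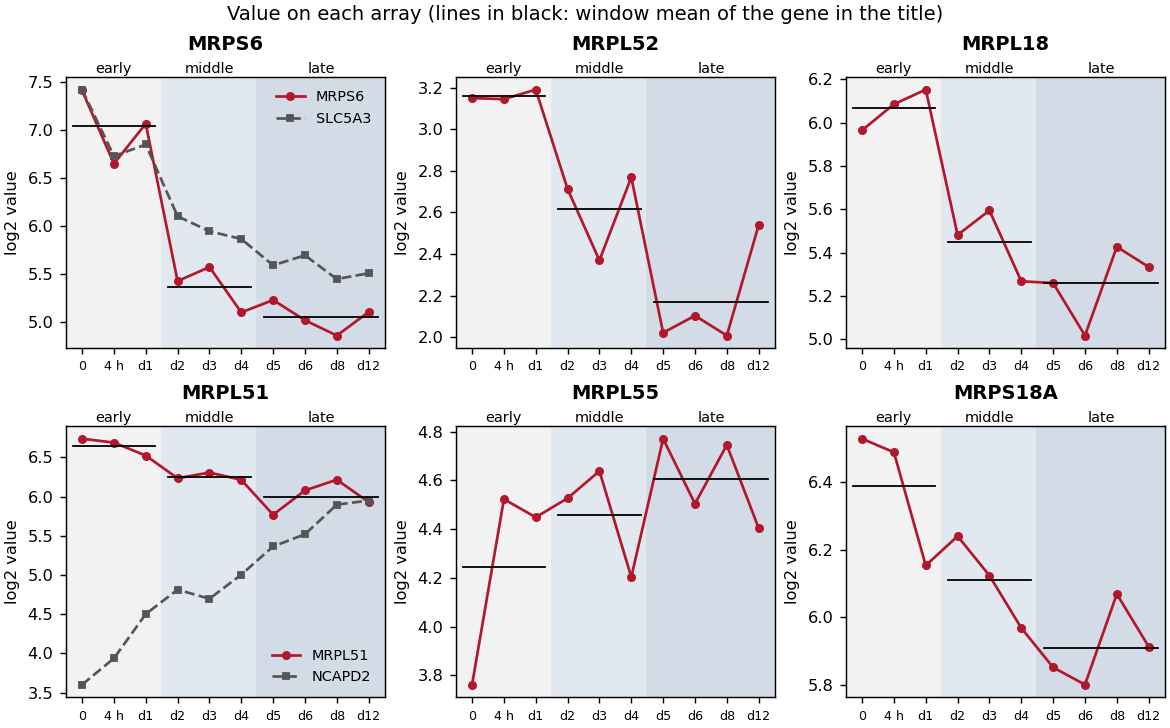
Log2 value (y axis, scaled to each panel) on each of the 10 arrays (x axis, 0 = untreated, d = days of TGFβ1, not to scale) for 6 genes, with the mean of each window in black and the genes SLC5A3 and NCAPD2 as dashed lines beside MRPS6 and MRPL51. MRPS6 went from 7.06 on day 1 to 5.43 on day 2 and stayed at or under 5.57, and MRPL55 was at 3.76 in untreated cells and at 4.20 or more thereafter.

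The family came down from untreated cells to day 2. With each gene set against its own median, the median over the 76 genes was 0.35 in untreated cells, 0.27 at 4 h and 0.11 on day 1. It was -0.02, 0.01 and -0.06 on days 2, 3 and 4, and -0.14, -0.03, -0.02 and -0.06 on days 5, 6, 8 and 12. The median of the family stayed within 0.14 of 0 from day 2 on, while the median of all genes stayed between -0.01 and 0.04. Most arrays are from day 2 on, so a gene's own median tends to lie among them. The nearness to 0 there is thus partly set by the centring. The median step was -0.07 log2 from untreated to 4 h, -0.11 from 4 h to day 1 and -0.19 from day 1 to day 2, the largest of the 9 steps (-0.01 for all genes). At this last one 52 of the 76 genes went down, as did 51.6% of all genes. On day 2, 40 genes of the family lay below all their early values, against 30.7% of all genes. At least 0.5 log2 was lost from day 1 to day 2 by 8 genes and gained by none, where 7.32% and 7.93% of all genes moved so far. From 4 h to day 1 the counts were 4 and none (6.26% and 6.76%). With day 1 alone as the reference, so among treated cells only, the mean of the late arrays was at least 0.5 log2 lower in 11 genes and higher in none (8.45% and 7.74%). Day 1 itself was that much lower than untreated in 18 genes and higher in 3 (11.9% and 12.1%). A single array stands on at least 1 side of each of these differences, so no test applies.

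**Figure D3:**
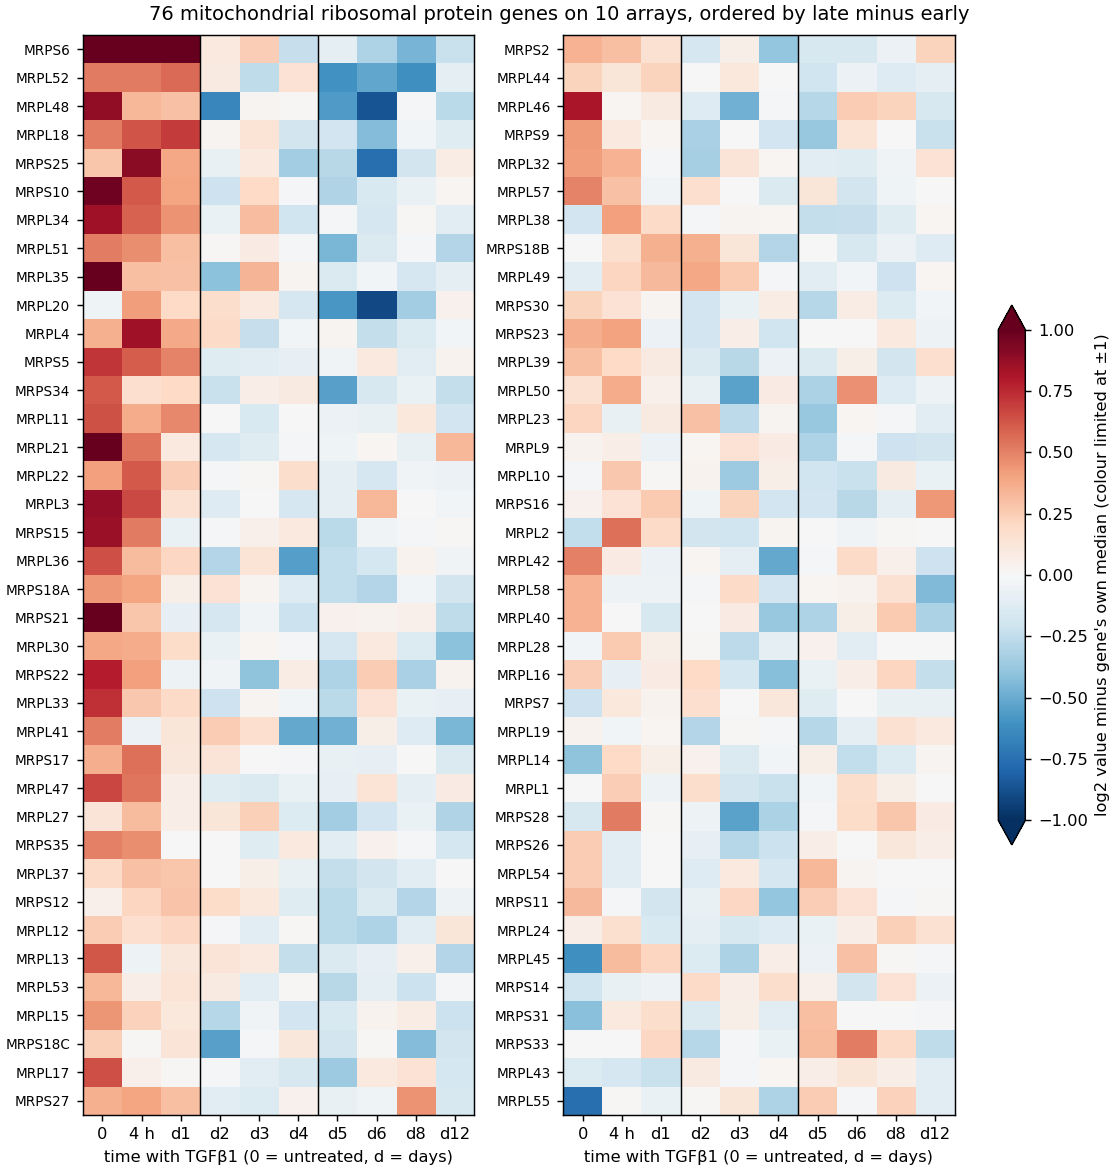
Each row is 1 of the 76 genes, ordered by late minus early difference, each column 1 array (0 = untreated, d = days of TGFβ1), and colour the log2 value minus the gene's own median, limited at -1 and 1. The first 3 columns are red for most genes and the later columns pale, and 41 genes have their highest value in the first column.

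The comparison of the middle with the early window shares the early arrays with the late comparison and is no separate evidence. In it 7 of the 76 genes fell and none rose (3.59% and 4.25% of all genes), with a median of -0.28 log2. Below 0 lay 69 genes of the family and 54.9% of all genes. By at least 1 log2, MRPS6 fell and none rose (1.02% and 1.78%). In 30 genes every middle array was below every early array, and in 2 every one was above (13.3% and 11.9%). Of the 7 genes called lower, 6 were also called in the late comparison, namely MRPS6, MRPL18, MRPS10, MRPL34, MRPS5 and MRPL11. The other was MRPL3, named after its values were seen, with a middle difference of -0.67 (adjusted p = 0.0454). The count of 7 depended on single arrays: it was 3 without the untreated or the 4 h array, 16 without day 1, and 2 without day 2 or day 4. How many of all genes were called in these refits is not given here.

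Between the late and middle windows no gene of the family passed the test. None of the 76 fell or rose by limma (0.114% and 0.433% of all genes), the lowest adjusted p was 0.32, and 6 had an unadjusted p under 0.05, as did 2327 of all 23786 genes. The median difference was -0.03 log2, with 41 of the 76 genes and 54.5% of all genes below 0. With at least 1 log2 as well, the shares of all genes were 0.0715% and 0.303%. The windows did not overlap in 4 genes that were lower and 3 that were higher (6.15% and 6.05%). The lowest differences were those of MRPL20 (-0.48), MRPL52 (-0.45) and MRPS6 (-0.31), and the highest those of MRPS28 (0.43), MRPS33 (0.31) and MRPS26 (0.25). MRPS28 measured 4.28, 3.80 and 4.02 on the middle arrays and 4.32, 4.51, 4.61 and 4.42 late, and its early values of 4.17, 4.85 and 4.35 spanned the late ones.

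A quadratic curve over days, fitted by limma to all 10 arrays, called 10 genes lower and none higher (5.38% and 7.07% of all genes). All 10 were among the 17. In 5 of them, MRPS6, MRPL52, MRPS25, MRPS10 and MRPL34, some array was at least 1 log2 below the untreated one, where 3.44% of all genes were called lower and 5.21% higher with such a change. The count depended on the shape of the curve, as 23 genes were called lower on the log2 of hours and none on a straight line in days. Without the 4 h array the quadratic curve called 2, and without the untreated, day 4 or day 6 array it called 6. The shares of all genes called under these settings are not given here, so the changes in count may not be particular to the family.

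At 4 h the family differed from untreated cells no more often than all genes did. Between the 2 arrays 17 of the 76 genes differed by at least 0.5 log2, where 22.4% of all genes did. Of these genes 9 were lower and 8 higher. The median difference was -0.07 log2, and -0.03 over all genes. The lowest were MRPS21 (9.83 to 8.96), MRPL46 (5.85 to 5.05) and MRPS6 (7.41 to 6.65), and the highest MRPL45 (5.23 to 6.16), MRPL2 (4.83 to 5.62) and MRPL55 (3.76 to 4.52). With the mean of the untreated and day 1 arrays as the baseline, 1 gene was lower by 0.5 log2 and 4 were higher, so the balance of the directions depended on the untreated array.

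Of 5 other mitoribosome proteins, whose symbols do not begin with MRP, 4 fell. DAP3, a GTP-binding protein of the small subunit, measured 7.25, 7.32 and 6.90 early and 6.22, 6.25, 6.37 and 6.43 late (-0.84 ± 0.14, adjusted p = 0.00169). Also lower were PTCD3 (-0.78), GADD45GIP1 (-0.66) and CHCHD1 (-0.60), whereas AURKAIP1 did not pass the test (0.14, and 0.23 without the untreated array). Counting MRPL58, a peptide-release enzyme built into the large subunit that is also among the 76 (-0.14, not called, and -0.01 without the untreated array), 4 of the 6 genes on this list fell.

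Of 17 genes for mitochondrial translation factors and their helpers 5 fell (29.4%) and 1 rose (5.88%), against 7.12% and 8.00% of all genes. OXA1L, which inserts the new proteins into the inner membrane, was lower by 0.91 log2 at 8.90, 9.14 and 8.79 early and 8.05, 8.06, 7.86 and 8.18 late. TUFM, the elongation factor that brings tRNAs, differed by -0.87, and GFM1, the factor for translocation, by -0.62. The mRNA-stabilising partners SLIRP and LRPPRC differed by -0.78 and -0.62. GFM2, which acts in ribosome recycling, rose (0.50 ± 0.12, adjusted p = 0.0179), from 6.03, 6.24 and 6.40 early to 6.68, 6.86, 6.83 and 6.55 late. Without the untreated array GFM2 (0.41, adjusted p = 0.0626), GFM1 (-0.55, adjusted p = 0.10) and LRPPRC (-0.53, adjusted p = 0.0781) were no longer called.

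Of 27 genes for assembly of the mitoribosome and modification of its RNA 3 fell (11.1%) and none rose. Of all genes 7.12% fell and 8.00% rose, and of genes above the median gene 11.7% fell. The count of this list was thus near those shares. C1QBP, a matrix protein that binds RNA, had 7.45, 7.17 and 6.88 early and 5.89, 6.00, 5.83 and 6.05 late (-1.23 ± 0.14). NOA1, a GTPase, differed by -0.59 and RPUSD4, a pseudouridine synthase, by -0.45, and both lost the call without the untreated array (-0.46 and -0.35). Among 9 nuclear regulators 3 were lower (33.3%, against 7.12% of all genes). They were the coactivators PPARGC1A (-1.84) and PPARGC1B (-1.25) and the transcription factor MYC (-0.80). The factors for which the promoter motifs are named did not pass the test, with 0.11 for NRF1, 0.40 for GABPA and -0.06 for YY1. NRF1 measured 3.85 in untreated cells and 4.50 to 4.96 on the other arrays. When that array was left out NRF1 was at -0.23, YY1 at 0.05 and MYC at -0.56, no longer called (adjusted p = 0.11).

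A pair of larger groups, chosen with their course known, was set beside the family on the same arrays and contrast. Of 63 cytosolic ribosomal protein genes 41 fell and none rose (median -0.90 log2), and of 73 nuclear-encoded respiratory chain subunits 48 fell and none rose (median -0.64). At least 1 log2 was lost by 28 of the former, 8 of the latter and 1 of the 76. The medians of these groups also stepped down between day 1 and day 2, from 0.68 to 0.05 and from 0.40 to 0.01 relative to each gene's own median. These groups were not tested against the family.

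**Figure D4:**
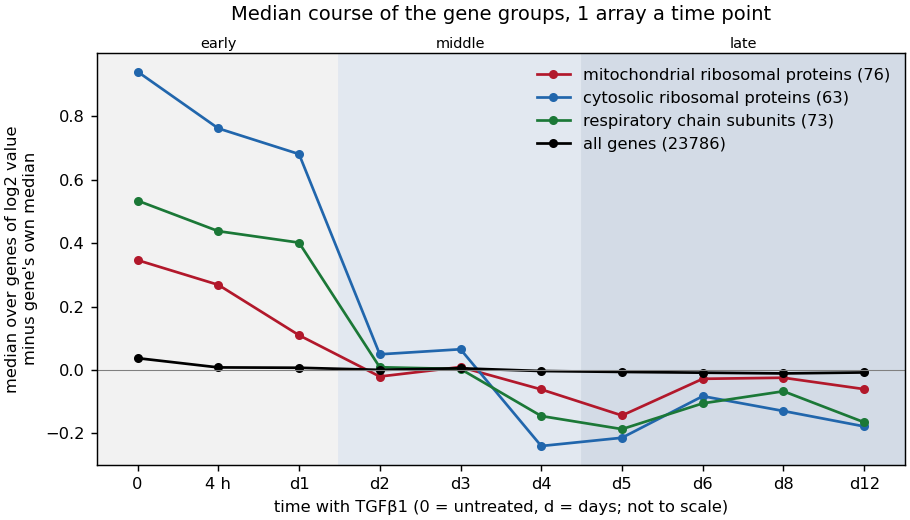
Median over the genes of each group of the log2 value minus the gene's own median (y axis) on the 10 arrays (x axis, 0 = untreated, d = days of TGFβ1, not to scale; 1 array a time point, no error bars). Mitochondrial ribosomal protein genes went from 0.35 to -0.02 by day 2, cytosolic ribosomal protein genes from 0.94 to 0.05 and respiratory chain subunits from 0.53 to 0.01, while all genes stayed within 0.04 of 0.

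Several of the genes share a start region with a gene on the opposite strand. Of 16 pairs whose starts lie within 1000 bases and whose partner was measured and lies outside the family, 1 partner fell and 2 rose, and 4 of the members fell. Of all genes 7.12% fell and 8.00% rose, and with 16 pairs the counts of partners cannot be set apart from these shares. MRPL51 (-0.65) lies head to head with NCAPD2, a condensin subunit, which rose from 3.60, 3.94 and 4.50 early to 5.36, 5.52, 5.90 and 5.95 late (1.67, adjusted p = 4.05e-04). MRPL57 (-0.28, not called, and -0.16 without the untreated array) lies beside SKA3, a kinetochore protein, which rose by 1.63 (adjusted p = 8.12e-04). The partner that fell was PSMA2, a proteasome subunit (-0.53), beside MRPL32 (-0.28, not called). MRPL18 (-0.81) lies beside TCP1, a chaperonin subunit (-0.40, not called, and -0.24 without the untreated array). MRPL46 and MRPS11 form the single pair within the family, and their differences of -0.30 and 0.05 (-0.05 and 0.20 without the untreated array) did not pass the test. The pairs were looked up with the members' results known.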

How the data were processed

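Gene expression was measured on Affymetrix Human Gene 2.0 ST arrays. The authors made the deposited log2 values from the scanned arrays with the Robust Multiarray Average (RMA), which corrects background, quantile-normalises the arrays and summarises the probes of an Entrez gene. Quantile normalisation makes every value relative to the other genes, so a change in total RNA per cell is not seen. The 23786 genes were named through the RefSeq gene table (23093 with a symbol), and the platform annotation gave the same 76 genes. The members, gene lists and motifs were chosen with earlier results of these data known.

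Windows of arrays were compared with lmFit, contrasts.fit and eBayes of limma 3.58.1 in R 4.3.3, and p-values were adjusted over all 23786 genes by the Benjamini-Hochberg method. A call needs an adjusted p of at most 0.05, and a stricter one also 1 log2. The time curve (days and their square, moderated F) also needs an R2 of at least 0.6. Scripts were tested on simulated data. No filter on low values was used. The number of arrays limits the precision, and the median residual SD over the 76 genes was 0.20 log2.

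Genes named were the 10 lowest and 6 highest by late minus early difference, those called with 1 log2, and the 3 highest and lowest at 4 h and in late minus middle. Also named were the paralogues, all genes listed for the stalk, tunnel, protuberance and decoding site, and the called translation and assembly genes. The 3 highest and lowest by mean level were also in the rule, but levels of different genes are not compared here. Alternatives were each array left out, arrays centred on their medians, trended robust eBayes, genes above the median gene, day 4 moved to the late window, a 0.5 log2 limit, other baselines and other time scales.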

Additional observations from a re-analysis of the deposited data

Results flagged for a closer look

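In 4 genes 1 late array lay far from the other 3 relative to the range of the 4. MRPS31 had 4.68 on day 5 (next value 4.39), MRPL54 had 2.31 on day 5 (next 2.00), MRPS15 had 5.16 on day 5 (next 5.40) and MRPS21 had 8.43 on day 12 (next 8.72). Chance alone marks about 5% of groups of 4, and these arrays are different days, so a value may stand apart because the time point does. None of the 4 genes was called in any comparison.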

How the results depend on the processing

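No called difference turned its direction under any alternative. Without the untreated array 4 genes that were not called changed sign in late minus early (MRPL40, MRPS28, MRPL45 and MRPS31), and at 4 h the larger count passed from lower to higher under the other baseline. Of 193 alternative values of the results by comparison 174 stayed within the limits set for them. Leaving out each array in turn gave 11 to 25 genes lower in late minus early, 2 to 16 in middle minus early and 2 to 14 for the time curve. With day 4 in the late window middle minus early called 3 genes lower, as it did with centred arrays and no untreated array, an alternative chosen after seeing the data. The time curve called 23 lower on log2 hours and 0 on a straight line, and the cause was not tested. Shares of all genes called under the alternatives are not given here, so such changes in count may not be particular to the family. At 4 h, with the mean of untreated and day 1 as the baseline, 1 gene was lower and 4 were higher, and at a limit of 1 log2 the counts were 0 and 0. Of the 17 genes called in late minus early, 9 kept the call whichever array was left out (MRPS6, MRPL52, MRPL18, MRPS10, MRPL34, MRPL51, MRPS5, MRPL11 and MRPL22) and 8 lost it in at least 1 case. Centring each array on its median gave 18 lower. No paired analysis was possible because each time point has 1 array. Genes near the lower quartile of all genes, such as MRPL48 and MRPL54, may be limited by background, and no detection calls were used.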
